A study of Danio rerio with 20 samples.

Results

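Cells that express cdh5, the gene of VE-cadherin, were taken from the aorta-gonad-mesonephros region (AGM) of zebrafish embryos at 36 hpf. A cell was chosen when its well held at least 1500 unique molecular identifiers (UMIs, which count transcripts), cdh5 reached 300 CPM (UMIs of the gene scaled to a fixed total of UMIs in that well), lyz stayed under 10000 CPM, mfap4 under 500 CPM and krt4 under 1000 CPM. The last 3 limits keep out neutrophils (lyz, lysozyme), macrophages (mfap4) and skin (krt4, a keratin). By this rule 325 of the 3716 AGM cells were chosen, or 8.75%, out of 6116 cells in the whole series. They are called cdh5-positive cells below. The 3391 AGM cells that did not meet the rule are called other AGM cells.

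The cells came from 12 plates of 384 wells, processed by SORT-seq, a method that sorts a single cell into each well. Plates L1 to L5 held cells of LY294002-treated embryos, LY294002 being an inhibitor of phosphoinositide 3-kinase (PI3K). Plates C1 to C4 held cells of control embryos, labelled as wildtype. Plates X1 to X3 held cells of both treatments, and their wells were not assigned to a treatment here, so they enter no comparison of treatments. By the study's methods all embryos carried the kdrl:mCherry and cd41:eGFP transgenes, the AGM of many embryos was pooled, and the sort gate took kdrl-positive cells with low cd41 signal. Endothelial cells outside that gate were therefore not sampled, and every plate shares a pool of embryos among its cells. C1 and C2 were sorted on day 1, X1 and X2 on day 3, L1 and L2 on day 4, and the other 6 plates on days 10 to 12.

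VE-cadherin is the adhesion protein that holds endothelial cells together at their junctions, and cdh5 is used across vertebrates to mark endothelium. In the AGM, a part of the endothelium in the floor of the dorsal aorta is haemogenic: its cells turn on blood genes, bend out of the vessel wall and leave it as haematopoietic stem and progenitor cells, a process called endothelial-to-haematopoietic transition (EHT). Notch signalling is needed for arterial identity and for this step, and blood flow supports it through klf2a. Blood genes such as runx1, myb and gata2b come on in the haemogenic endothelium, and cells lose endothelial genes as they leave the wall.

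The values of cdh5 chose the cells and are given only as a description. The median level of cdh5 was 1785 CPM and the highest 5562 CPM. The choice rested on 10 or more UMIs of cdh5 in 177 cells, on 3 or more in 302, on 2 in 13 cells and on 1 in 10 cells. Just inside the limit lay cells with 301, 304, 339, 357 and 360 CPM, and just outside it cells with 296, 295, 292, 284 and 264 CPM. Another 25 cells reached 300 CPM but were left out by a limit of another gene, 15 by krt4, 7 by mfap4 and 4 by lyz (1 of them by more than 1 limit). A UMI of cdh5 was also present in 6.76% of the cells above the lyz limit (median 12623 UMIs per cell), 9.37% of those above the mfap4 limit and 5.76% of those above the krt4 limit. At 300 CPM or more, these shares were 0.398%, 1.02% and 3.20%.

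The label of endothelium held against genes that the rule did not use directly. Over 32 endothelial genes other than cdh5, the summed level had a median of 9983 CPM in cdh5-positive cells and 546 CPM in other AGM cells. The 5th percentile of cdh5-positive cells was 3032 CPM, above the 95th percentile of the other AGM cells, which was 2259 CPM. Only 10 of the cdh5-positive cells lay under 2000 CPM, and 7 of these were cells chosen on 1 or 2 UMIs of cdh5. The kdrl gene of the sort gate was not matched to an ID here. The other gene of the gate, itga2b (cd41), was at 1.15 ± 1.88 CPM in cdh5-positive cells and 0.184 ± 0.170 CPM in other AGM cells (SD, n = 6 plates). cdh5-positive cells were smaller libraries, with a median of 6094 UMIs per cell, against 11559 UMIs per cell in other AGM cells. Mitochondrially encoded genes took a median of 5.50% of UMIs in cdh5-positive cells and 6.66% in other AGM cells. No cdh5-positive cell was among the 2% of cells with most UMIs of its plate. In the caudal haematopoietic tissue (CHT) at 5 dpf, only 3 of 2400 cells met the same limits.

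Levels were compared on the 6 plates that held at least 10 cdh5-positive cells each, which were L1, L2, C1, C2, X2 and X3, with 285 cells in all. A level is the CPM of the UMIs summed over the cells of a class on a plate. Because the contrast is that of the rule, no test was made. Of 9939 genes with a mean of at least 10 CPM in either class, 1358 (13.7%) were higher on every plate in cdh5-positive cells than on any plate in other AGM cells, and 1161 (11.7%) were lower in the same sense. The median ratio over all these genes was 1.05.

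Most genes of the endothelial junction, receptors and transcription factors were higher in cdh5-positive cells. Of 33 endothelial core genes measured, 28 were higher without overlap and none was lower, with a median ratio of 29.1. tie1, a receptor that acts with the angiopoietin receptor Tek, was at 733 ± 125 CPM in cdh5-positive cells and 13.4 ± 8.36 CPM in other AGM cells. esama, which encodes another junction protein, gave 286 ± 85.0 CPM against 3.20 ± 2.06 CPM in other AGM cells. etv2, the transcription factor that starts the endothelial and blood programme in the early embryo, was at 270 ± 76.2 CPM, against 7.75 ± 3.38 CPM in other AGM cells. The 5 core genes whose plates overlapped were kdr, fli1b, robo4, lmo2 and tal1. The last 2 are shared with blood progenitors: lmo2 was at 121 ± 30.2 CPM in cdh5-positive cells and 79.4 ± 16.0 CPM in other AGM cells, and tal1 at 77.5 ± 33.5 CPM in cdh5-positive cells and 52.9 ± 12.6 CPM in other AGM cells.

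All 13 EHT markers that the study listed were higher without overlap, with a median ratio of 23.1. That list was drawn up on these plates, so its direction is not independent evidence. Simple keratins were the most abundant of them. krt8 was at 7508 and 10422 CPM on L1 and L2, at 4739 and 4974 CPM on C1 and C2, and at 5095 and 7818 CPM on X2 and X3. Other AGM cells gave 156 to 441 CPM. krt18, which pairs with krt8 to build the keratin filaments of simple epithelia, had 6456 and 10353 CPM on L1 and L2, 4927 and 4949 CPM on C1 and C2, and 4962 and 6667 CPM on X2 and X3, against 40.3 to 315 CPM in other AGM cells. Every plate thus lay far above the other cells for both keratins. krt94 followed the same pattern at 1265 ± 309 CPM, against 9.43 ± 10.8 CPM in other AGM cells. The skin keratin krt5 was at 1.77 ± 2.03 CPM in cdh5-positive cells and 30.4 ± 30.1 CPM in other AGM cells. The krt4 limit left skin cells among the other AGM cells, so a low level of krt5 follows from the choice.

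Outside that list, aqp1a.1, a water channel, was at 2642 ± 974 CPM in cdh5-positive cells and 23.7 ± 10.8 CPM in other AGM cells. hapln1b, an EHT marker whose protein links hyaluronan to proteoglycans in the matrix, was at 1525 ± 484 CPM against 36.8 ± 12.7 CPM in other AGM cells. Across single cells these genes were wide-ranging. The 10th percentile, median and 90th percentile over the 325 cells were 1581, 5641 and 11529 CPM for krt8, and 0, 1399 and 3387 CPM for hapln1b. The 12 genes with the largest ratio among those of at least 100 CPM included, besides cdh5 (ratio 113) and krt94 (ratio 134), tmem88a (134), myct1a (115), aqp1a.1 (111) and aplnra (103). sele, the endothelial selectin that catches leukocytes, was also among them at 680 ± 440 CPM, against 7.25 CPM in other AGM cells. One of the 12 without a symbol, ENSDARG00000026039, was at 242 and 838 CPM on L1 and L2 and at 42.9 and 21.7 CPM on C1 and C2.

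**Figure D1:**
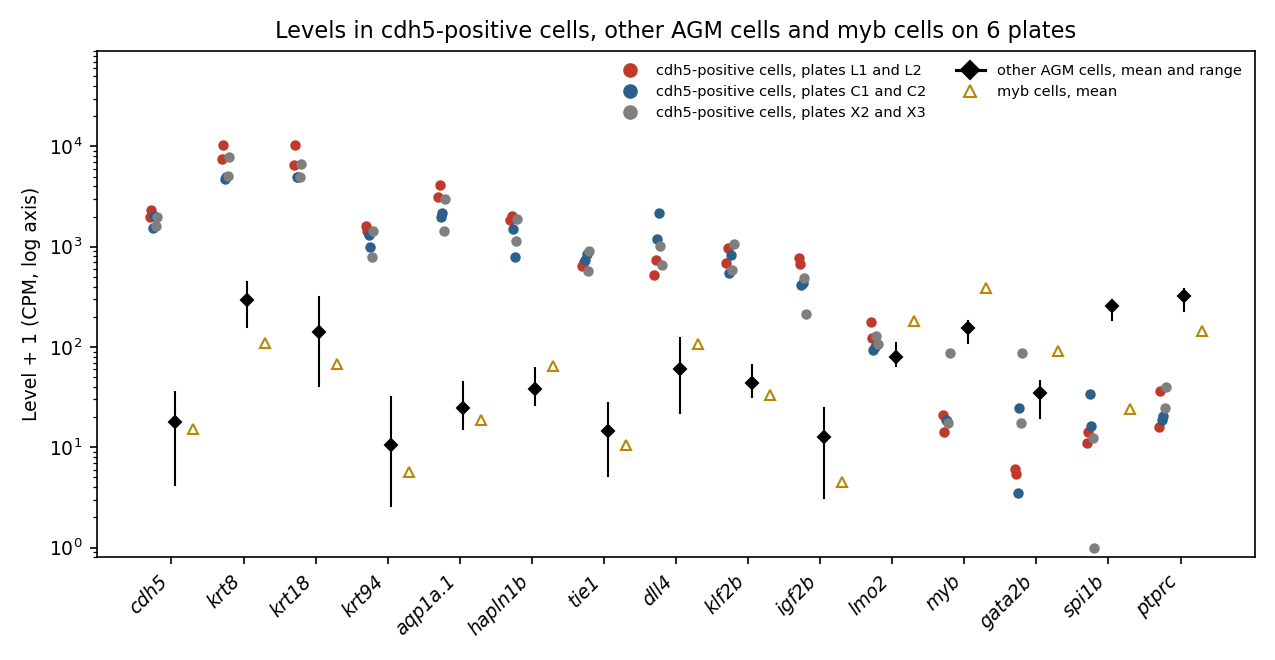
Levels of 15 genes on 6 plates, as CPM + 1 on a log axis. Dots are cdh5-positive cells of single plates (red L1 and L2, blue C1 and C2, grey X2 and X3), black diamonds the mean over plates of other AGM cells with a line over their range, and open triangles the mean of myb cells. The endothelial genes on the left lie above the other cells on every plate, with krt8 between 4739 and 10422 CPM, while myb, spi1b and ptprc lie below them.

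Arterial and venous genes were both present in the set. Of 19 genes of the arterial and Notch list, 11 were higher without overlap and none was lower, with a median ratio of 7.26. dll4, the Notch ligand of arterial endothelium, was at 1050 ± 607 CPM in cdh5-positive cells, 59.6 ± 39.6 CPM in other AGM cells and 105 CPM in myb cells. myb cells are the 836 AGM cells that pass the same limits for lyz, mfap4 and krt4, hold less than 300 CPM of cdh5 and at least 100 CPM of myb. The Notch targets her6 and nrarpa were at 2363 ± 644 and 1640 ± 166 CPM in cdh5-positive cells, against 357 ± 237 and 435 ± 172 CPM in other AGM cells. Of 10 venous and lymphatic genes, all 10 were higher without overlap, with a median ratio of 32.6. stab1 and stab2, scavenger receptors of veins and lymphatic vessels, were at 475 ± 137 and 297 ± 362 CPM, against 14.2 ± 7.12 and 9.37 ± 6.02 CPM in other AGM cells. The large SD of stab2 came from X2, with 1018 CPM, where the other 5 plates had 45.3 to 270 CPM. dab2, an endocytic adaptor of venous endothelium, was at 949 ± 218 CPM against 48.7 ± 17.5 CPM in other AGM cells.

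Blood genes were low. Of 16 haemogenic and blood genes measured, 8 were lower without overlap and only adgrg1 was higher, at 101 ± 41.2 CPM in cdh5-positive cells and 27.0 ± 5.72 CPM in other AGM cells. adgrg1 is an adhesion receptor that is known to act in EHT. myb, a transcription factor of stem and progenitor cells, was at 28.6 ± 28.5 CPM in cdh5-positive cells, against 155 ± 25.1 CPM in other AGM cells and 387 CPM in myb cells, which were chosen on it. gata2b, a transcription factor of haemogenic endothelium in zebrafish, was at 23.1 ± 32.2 CPM in cdh5-positive cells, 33.4 ± 10.7 CPM in other AGM cells and 89.4 CPM in myb cells. On plate X3, which held 17 cdh5-positive cells, myb and gata2b each had 86.6 CPM, and the other 5 plates had 13.2 to 20.1 and 2.52 to 23.9 CPM. The pan-leukocyte gene ptprc reached at most 38.5 CPM on any plate, against at least 230 CPM in other AGM cells. spi1b, the factor of the myeloid lineage, was at 13.8 ± 10.7 CPM, against 257 ± 40.9 CPM in other AGM cells. Other AGM cells hold the lyz-high and mfap4-high cells that the limits left out, so both contrasts follow in part from the choice. In myb cells ptprc was at 143 CPM and spi1b at 22.9 CPM. The cdh5 limit acts on myb and gata2b too. A cell under that limit was not chosen, whatever its blood genes, so cells that had lost cdh5 during EHT would be left out. Of the 1347 other AGM cells that passed the lyz, mfap4 and krt4 limits, 164 held a UMI of cdh5. The part of such cells in the low levels of blood genes was not tested.

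Shares of cells with a UMI were read after thinning every cell to 1500 UMIs, since depth differed. A UMI of myb was then found in 3.38% of cdh5-positive cells (8.92% without thinning), 42.9% of myb cells and 11.3% of the 1006 cells above the lyz limit. For gata2b the thinned shares were 1.85% of cdh5-positive cells (4.31% without thinning, 14 cells), 12.4% of myb cells and 0.298% of lyz-high cells, so that only the last lay below the cdh5-positive cells. For gfi1aa, a repressor that silences endothelial genes during EHT, they were 0.923% of cdh5-positive cells, 9.33% of myb cells and 0.696% of lyz-high cells, where cdh5-positive and lyz-high cells were alike at this depth. ptprc (3.38%) and spi1b (3.08%) lay far under their shares in lyz-high cells, 49.0% and 48.3%, but the lyz limit had kept such cells out. In myb cells ptprc was found in 16.4% and spi1b in 2.75%, so that spi1b did not set cdh5-positive cells apart from myb cells. runx1 was found in 0 of 325 cells, which allows a share of up to 0.923% of cells with a UMI. Its ID was at or near 0 in every class, at 0.0783 CPM in other AGM cells and 0 CPM in myb cells. Without thinning, 44 of the 325 cells held a UMI of myb, gata2b or gfi1aa, and 4 held UMIs of 2 or more of them. These limits cover counting error only.

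Genes that respond to flow and genes of the vessel wall were high. Of 9 flow response genes, 8 were higher without overlap (median ratio 16.2). klf2a and klf2b, the flow-induced transcription factors, were at 492 ± 218 and 780 ± 211 CPM in cdh5-positive cells and at 30.3 ± 32.2 and 42.5 ± 13.7 CPM in other AGM cells. Among 20 matrix and junction genes, 17 were higher without overlap (median ratio 21.2). col4a1, a collagen of the basement membrane, was at 594 ± 168 CPM against 12.2 ± 8.82 CPM in other AGM cells, and fn1a, a fibronectin, at 738 ± 112 CPM against 21.8 ± 13.3 CPM in other AGM cells. Actin regulators were split: of 15 measured, 9 were higher and 2 were lower without overlap. The actin-binding genes tpm4a (1058 ± 344 CPM, against 62.7 ± 13.5 CPM in other AGM cells) and flna (1073 ± 274 CPM, against 69.3 ± 26.9 CPM in other AGM cells) were higher. The lower ones were myh9a, a non-muscle myosin heavy chain, at 40.2 ± 26.2 CPM against 327 ± 137 CPM in other AGM cells, and pfn1, a profilin, at 563 ± 161 CPM against 4858 ± 783 CPM in other AGM cells.

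Several genes of the PI3K pathway and its FoxO targets were higher as well. Of 25 measured, 13 were higher without overlap and none was lower (median ratio 4.09). igf2b, a growth factor upstream of PI3K, was at 498 ± 199 CPM in cdh5-positive cells and 11.7 ± 8.65 CPM in other AGM cells. pik3ca, a catalytic subunit of PI3K, was at 277 ± 84.7 CPM against 29.6 ± 8.08 CPM in other AGM cells, and foxo1b, a FoxO factor that PI3K signalling keeps out of the nucleus, at 268 ± 41.3 CPM against 18.9 ± 4.87 CPM in other AGM cells. In contrast, plates overlapped for pik3cg, the catalytic subunit of leukocytes, at 13.2 to 67.3 CPM in cdh5-positive cells and 62.5 to 157 CPM in other AGM cells. The phosphatase genes that counteract PI3K also overlapped. ptena was at 153 ± 26.5 CPM in cdh5-positive cells and 119 ± 17.4 CPM in other AGM cells, and ptenb at 205 ± 64.1 CPM in cdh5-positive cells and 153 ± 46.8 CPM in other AGM cells.

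Immediate early and stress genes were higher for 10 of 18 measured (median ratio 4.92), with jun at 1292 ± 389 CPM against 97.4 ± 32.5 CPM in other AGM cells and hsp70l at 1282 ± 562 CPM against 249 ± 152 CPM in other AGM cells. None of 15 cell cycle genes was apart (median ratio 0.969). mki67, a marker of dividing cells, was at 175 ± 110 CPM in cdh5-positive cells, 272 ± 68.8 CPM in other AGM cells and 472 CPM in myb cells. Of 16 apoptosis genes, 2 were higher without overlap (median ratio 1.45), a share near the 13.7% over all genes measured. They were bcl2l10, a member of the Bcl2 family, at 265 ± 148 CPM against 37.5 ± 6.54 CPM in other AGM cells, and bbc3 (Puma), which promotes cell death, at 33.4 ± 10.6 CPM against 6.04 ± 1.86 CPM in other AGM cells. In the list of VEGF, BMP and TGF-beta signalling, 6 of 14 were higher (median ratio 8.01). flt1, a VEGF receptor, was at 347 ± 96.1 CPM against 4.85 ± 5.12 CPM in other AGM cells.

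Markers of other cell types were looked up in the same way. The limits for lyz and mfap4 kept neutrophils and macrophages out of the cdh5-positive cells and left them among the other AGM cells, so low levels of their genes follow from the choice. All 8 neutrophil genes (median ratio 0.0771) and 6 of 7 macrophage genes (median ratio 0.0839) were lower without overlap. Their summed levels ran from 1503 to 3620 CPM and from 400 to 1234 CPM in cdh5-positive cells, against 22400 to 49415 CPM and 1573 to 3389 CPM in other AGM cells. lyz itself was at 1297 ± 388 CPM in cdh5-positive cells and 1062 CPM in myb cells. The sum of 7 neural genes found was 873 CPM on X2 and 28.8 to 194 CPM on the other 5 plates, and that of the 8 muscle genes found was 769 CPM on X2 and 67.4 to 189 CPM elsewhere. X2 was thus the plate with markers of other tissues, and its other AGM cells had 1071 CPM of the neural and 1950 CPM of the muscle genes. Of 12 skin genes measured, on which the krt4 limit acts in the same way, icn was higher and cfl1l lower without overlap. No defining gene of the pronephros reached 10 CPM, and of 4 mesenchyme genes measured only foxc1a and foxc1b, which endothelium also uses, were higher. The part of such cells in the levels was not tested.

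The 325 cells were not uniform. Rank correlations were computed across the 285 cells of the 6 plates, with ranks taken within a plate, and are given as a description, since these cells share plates and depth. Over all pairs of 3954 genes with a UMI in at least 20% of the cells, the median rank correlation was 0.03 and the 5th and 95th percentiles were -0.08 and 0.15. The sets of genes below were chosen after these values had been seen.

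A first set held hand2, tbx20, wnt9b, tfpia, has2 and notch1b. hand2 and tbx20 are transcription factors known from heart and lateral mesoderm, wnt9b is a Wnt ligand, tfpia an inhibitor of coagulation and has2 the synthase of hyaluronan. With the plates pooled, all 15 pairs were positively correlated, with a median of 0.42 (0.28 to 0.52), 0.27 after thinning and 0.41 without X2. On single plates some turned, as hand2 and tbx20 (-0.30 to 0.62) and tbx20 and has2 (-0.30 to 0.49). hand2 and wnt9b stayed above 0 on all 6 plates (0.11 to 0.68). hand2 had a UMI in 69 cells and wnt9b in 81 cells, and both were found in 47 cells, where 17.2 would be found if they were independent. After thinning, 37 and 49 cells held them and 18 held both. Such counts, here and below, pool the 325 cells over all plates, so differences between plates and in depth are part of them. Among the genes most like hand2 were adarb1a (0.55), wnt9b (0.52), sall1a (0.49), unc5b, a netrin receptor of vessels (0.47), and tgfb3 (0.46). By plate, the level of hand2 was 20.1 and 52.8 CPM on L1 and L2, 80.8 and 185 CPM on C1 and C2, and 71.7 and 48.1 CPM on X2 and X3, so that it was present on all 6. The gene was close to absent elsewhere, at 0.753 CPM in other AGM cells and 0.223 CPM in myb cells.

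A second set held genes of arterial identity, efnb2a (the ephrin ligand that marks arteries), hey2 (a Notch target), cxcr4a (a chemokine receptor) and dll4. Their 6 pairs had a median of 0.36 (0.28 to 0.44), 0.22 after thinning and 0.37 without X2. On single plates efnb2a ran from -0.27 to 0.39 with hey2 and from -0.23 to 0.55 with dll4. cxcr4a varied on only 3 of the 6 plates, where it was at 0.43 to 0.64 with efnb2a. cxcr4a had a UMI in 29 cells and hey2 in 71 cells, with 22 cells that held both, where independence gives 6.34. After thinning, 20 and 40 cells held them and 7 held both. Among genes with a UMI in at least 20% of the cells, those most like efnb2a included crip2 (0.40) and the Notch targets her15.1 (0.35) and her2 (0.34). hapln1b ran against this set, at -0.38 with efnb2a, -0.29 with cxcr4a and -0.27 with both hey2 and dll4. hapln1b itself went with slc6a4a (0.56), krt94 (0.51), aqp1a.1 (0.46) and fn1a (0.45).

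The last set held the venous genes stab1, stab2 and dab2, with a median of 0.44 (0.27 to 0.45), 0.32 after thinning and 0.38 without X2. It stood against the first set: all 18 pairs between them were below 0, with a median of -0.23, -0.12 after thinning and -0.18 without X2. On single plates some of these turned, as hand2 and stab2 (-0.35 to 0.34), while wnt9b and dab2 stayed below 0 (-0.61 to -0.22). stab2 had a UMI in 109 cells and met hand2 in 9 cells, where independence gives 23.1. After thinning, 57 cells held stab2, 37 held hand2 and 2 held both. Between the first and the second set the median was 0.01 (-0.20 to 0.24), and between the second and the last it was -0.10. Other pairs were close: krt8 and krt18 at 0.66, with 0.63 to 0.69 on single plates, and klf2a and klf2b at 0.50, with fosab at 0.40 to klf2a. krt8 was at -0.26 with mki67.

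The few cells with blood genes were set against the same genes. Of the 14 cells with a UMI of gata2b, 0 held hand2 (2.97 under independence), 0 held wnt9b (3.49), 9 held hey2 (3.06), 5 held cxcr4a (1.25) and 2 held stab2 (4.70). Other members of the sets were near independence, with tbx20 in 6 of the 14 cells (7.80) and efnb2a in 9 (7.06). After thinning only 6 cells held gata2b, of which 3 held hey2, 2 held cxcr4a and 0 held hand2 or stab2. The 29 cells with a UMI of myb held hey2 in 12 cells (6.34 under independence) and hand2 in 8 (6.16). With 14 and 29 cells these are counts and no estimate of a rate.

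**Figure D2:**
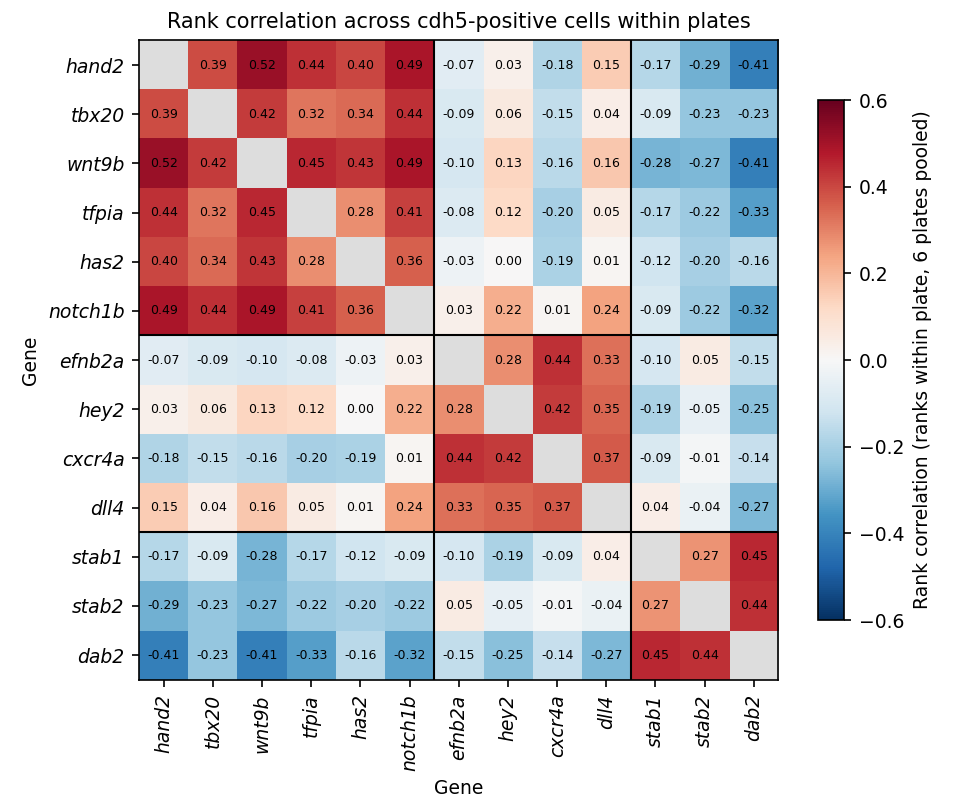
Rank correlation between 13 genes across 285 cdh5-positive cells of 6 plates, with ranks taken within a plate. cxcr4a varied on only 3 of these plates. Rows and columns are genes, red marks positive and blue negative values, and black lines part the 3 sets. The hand2 set (upper left, 0.28 to 0.52) and the stab2 set (lower right, 0.27 to 0.45) are red within and blue between (-0.41 to -0.09).

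The share of cdh5-positive cells was compared between LY294002-treated and control embryos over plates. On sort days 1 to 4, L1 and L2 had 9.76% (33 of 338 cells) and 8.82% (32 of 363 cells), against 26.3% (64 of 243 cells) on C1 and 21.1% (68 of 322 cells) on C2. On days 10 to 12, L3, L4 and L5 had 1.72% (6 of 349), 0.288% (1 of 347) and 6.56% (8 of 122), against 1.85% (7 of 378) on C3 and 2.38% (9 of 378) on C4. The early plates were thus apart, with fewer cdh5-positive cells on the treated plates, and the late plates overlapped. X1, X2 and X3 had 6.34%, 19.0% and 4.71%. The mean over all plates was 5.43 ± 4.23% with LY294002 (SD, n = 5) and 12.9 ± 12.7% in controls (n = 4), or -7.49 points with LY294002 relative to controls, which did not pass an exact permutation test (two-sided p = 0.262, the smallest possible being 0.00794). Within days 1 to 4 the difference was -14.4 points (exact permutation p = 0.333, the smallest that 2 against 2 plates can give), and within days 10 to 12 it was 0.739 points (exact permutation p = 1.00). In the early period, day 1 holds C1 and C2 and day 4 holds L1 and L2, so that treatment and sort day cannot be told apart there. Cells above the krt4 limit were also more frequent on the late plates, with 7.38% to 35.4% of cells on L3 to L5 and 12.7% to 26.2% on C3 and C4, against 0% to 0.621% on L1, L2, C1 and C2. X1 and X2, sorted on day 3, had 16.9% and 4.83% of such cells. With cells above the krt4 limit left out of the denominator, the difference over all plates was -7.56 points (exact permutation p = 0.254). Their part in the gap between early and late plates was not tested. Labels of the later plates state that not all cells were used, and all wells that reached the UMI minimum were kept here.

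**Figure D3:**
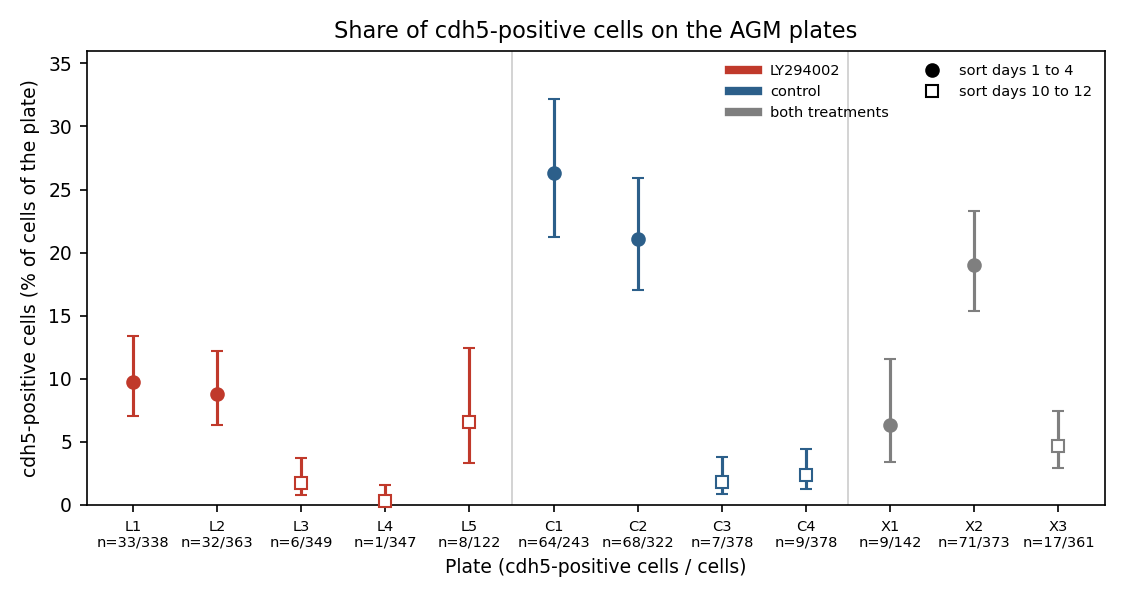
Share of cdh5-positive cells among the cells of each AGM plate, in percent, with 95% Wilson intervals that cover counting error only. Filled circles are plates of sort days 1 to 4 and open squares those of days 10 to 12, with LY294002 in red, control in blue and both treatments in grey. L1 and L2 (9.76% and 8.82%) lie under C1 and C2 (26.3% and 21.1%), and the late plates lie at 6.56% or less.

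Gene levels in cdh5-positive cells were compared between L1 and L2 (65 cells, 198521 and 227336 UMIs) and C1 and C2 (132 cells, 396116 and 459957 UMIs), the treated and control plates with at least 10 such cells. UMIs were added up per plate and tested with edgeR (quasi-likelihood). Under this test 44 of 4830 genes rose under LY294002 (0.911%) and 26 fell (0.538%) at a Benjamini-Hochberg adjusted p under 0.05. Without adjustment 781 genes had p under 0.05. With DESeq2, 61 rose and 26 fell. Nothing states that the plates come from separate batches of embryos, so the p-values measure the spread between plates only, and day 4 against day 1 is part of each difference below.

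Several Notch targets and arterial genes were among the genes that fell. her2, a target of Notch, was at 30.2 and 74.8 CPM on L1 and L2 and at 798 and 913 CPM on C1 and C2, a log2 fold change of -3.88 ± 0.35 (SE, edgeR adjusted p = 0.00133). It had a UMI in 2 of 33 and 4 of 32 cells on L1 and L2, against 21 of 64 and 27 of 68 cells on C1 and C2. her15.1, of the same family, had 3 and 10 counts on L1 and L2, against 172 and 138 counts on C1 and C2 (-3.47 ± 0.44, edgeR adjusted p = 0.00776). hey1, a Notch target of arterial endothelium, had 0 and 26.4 CPM on L1 and L2, against 136 and 452 CPM on C1 and C2 (-4.25 ± 0.83, edgeR adjusted p = 0.0423). Of these genes, her2 and her15.1 were chosen after their values were seen. DESeq2 did not call hey1 (DESeq2 adjusted p = 0.244). hey2, of the same family, had 3 and 4 counts on L1 and L2, against 36 and 140 counts on C1 and C2 (-3.44 ± 0.69, edgeR adjusted p = 0.0461). The receptor notch3 had 3 and 5 counts on L1 and L2, against 37 and 81 counts on C1 and C2 (-2.71 ± 0.52, edgeR adjusted p = 0.0407). crip2, which went with efnb2a across cells, had 3 and 14 counts on L1 and L2, against 123 and 397 counts on C1 and C2 (-3.76 ± 0.60, edgeR adjusted p = 0.0192).

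cxcr4a was without a UMI in all 33 and 32 cells of L1 and L2, against 199 CPM on C1 (7 of 64 cells) and 317 CPM on C2 (13 of 68 cells). It passed the test (edgeR adjusted p for cxcr4a = 0.00368), and no fold change is given against plates without a UMI, since the signal of the control plates sat in few cells. It was also without a UMI in the 6, 1 and 8 cells of the later plates L3, L4 and L5 and in the 7 and 9 cells of the later control plates C3 and C4. her4.1, her4.2 and her4.3 had no UMI on L1 and L2 either, against 146 and 100 CPM, 154 and 97.8 CPM and 182 and 84.8 CPM on C1 and C2. On C1 and C2 these came from 6 and 7, 5 and 4, and 9 and 7 cells. They are near-identical copies, so reads may be split between them, and the values of each are uncertain. lyve1a, a hyaluronan receptor gene, had 0 CPM on both treated plates, against 169 CPM on C1 (6 of 64 cells) and 54.4 CPM on C2 (3 of 68 cells, edgeR adjusted p = 0.0423).

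Of 18 arterial and Notch genes tested, 0 rose, 4 fell (cxcr4a, hey1, hey2 and notch3) and 15 had a log2 fold change below 0, with a median of -0.88, where the median over all genes tested was -0.03. At an unadjusted p under 0.05 there were 13, and DESeq2 called 6. The ligand dll4 had 524 and 730 CPM on L1 and L2 and 1202 and 2183 CPM on C1 and C2, which did not pass (-1.31 ± 0.30, edgeR adjusted p = 0.0642, against 0.00556 with DESeq2). The targets her6 (-0.53 ± 0.20, edgeR adjusted p = 0.230) and nrarpa (-0.13 ± 0.20, edgeR adjusted p = 0.822) and the receptor notch1b (-0.46 ± 0.26, edgeR adjusted p = 0.439) did not pass either. Among other genes that fell were plvapb, a protein of endothelial fenestrae (25.2 and 70.4 CPM, against 207 and 752 CPM on C1 and C2), the immediate early gene egr1 (45.3 and 35.2 CPM, against 146 and 191 CPM on C1 and C2), and rpl3, a ribosomal protein gene (52 and 59 counts on L1 and L2, against 651 and 777 counts on C1 and C2). DESeq2 did not call plvapb (DESeq2 adjusted p = 0.0722) or egr1 (DESeq2 adjusted p = 0.0551).

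Among the genes that rose were endothelial activation and stress genes. sele had 231 and 286 counts on L1 and L2, against 115 and 112 counts on the larger C1 and C2 (2.30 ± 0.23, edgeR adjusted p = 0.00233). cxcl18b, a chemokine gene, was at 358 and 268 CPM against 12.6 and 2.17 CPM on C1 and C2 (5.51 ± 0.54, edgeR adjusted p = 0.00205), and mt2, a metallothionein, at 222 and 189 CPM against 10.1 and 0 CPM on C1 and C2 (5.45 ± 0.68, edgeR adjusted p = 0.00684). Both rest on few cells. cxcl18b had a UMI in 6 of 33 and 7 of 32 cells on L1 and L2, against 2 of 64 and 1 of 68 on C1 and C2. For mt2 the cells were 6 of 33 and 5 of 32, against 3 of 64 and 0 of 68. clic2, a chloride channel gene and the only EHT marker that passed, was at 2242 and 3084 CPM against 783 and 739 CPM on C1 and C2 (1.92 ± 0.22, edgeR adjusted p = 0.00443). cxcl18b and mt2 were chosen on the condition that treated and control plates did not overlap, and sele was chosen after its values were seen. rnd1l rose as well (2.96 ± 0.59, edgeR adjusted p = 0.0442), as did the IDs ENSDARG00000026039 (4.17 ± 0.58, edgeR adjusted p = 0.0109) and ENSDARG00000085168 (3.13 ± 0.28, edgeR adjusted p = 0.00133), which have no symbol here.

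Of 18 immediate early and stress genes tested, 3 rose, 1 fell (egr1) and 16 had a log2 fold change above 0 (median 0.55). atf3, a stress-induced transcription factor, was at 2675 and 1654 CPM on L1 and L2 and 391 and 409 CPM on C1 and C2 (2.56 ± 0.29, edgeR adjusted p = 0.00400). fosl1a had 87 and 75 counts on L1 and L2, against 32 and 21 counts on C1 and C2 (2.73 ± 0.36, edgeR adjusted p = 0.00868), and socs3a, a feedback inhibitor of cytokine signalling, at 1431 and 1460 CPM against 702 and 476 CPM on C1 and C2 (1.41 ± 0.25, edgeR adjusted p = 0.0302). Genes of the NF-kappaB pathway outside the lists, seen after the test, also rose: nfkbiab (373 and 418 CPM, against 50.5 and 124 CPM on C1 and C2), tnfaip3 (378 and 361 CPM, against 93.4 and 157 CPM on C1 and C2) and relb (136 and 299 CPM, against 50.5 and 52.2 CPM on C1 and C2). Of 9 flow response genes, klf3 and klf6a rose (1.37 ± 0.23 and 1.40 ± 0.23), egr1 fell and klf2a was at 0.27 ± 0.24 (edgeR adjusted p = 0.658).

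Genes of the pathway that LY294002 inhibits did not pass in either direction. Of 19 genes of the PI3K and FoxO list tested, 0 rose and 0 fell with edgeR at the adjusted threshold, and 0 with DESeq2, with a median of 0.33. At an unadjusted p under 0.05 there were 6. ptena had 181 and 185 CPM on L1 and L2 and 116 and 139 CPM on C1 and C2 (0.64 ± 0.30, edgeR adjusted p = 0.328), and ptenb 166 and 321 CPM against 162 and 191 CPM on C1 and C2 (0.58 ± 0.33, edgeR adjusted p = 0.431). The FoxO-responsive gene txnipa was at 635 and 1047 CPM on L1 and L2 and 725 and 715 CPM on C1 and C2. Of 15 cell cycle genes, 0 passed with edgeR or DESeq2, and 0 had an unadjusted p under 0.05. Of 12 apoptosis genes, bcl2l10 rose (93 and 99 counts on L1 and L2, against 49 and 92 counts on C1 and C2, 1.60 ± 0.29, edgeR adjusted p = 0.0311). Of the 7 neutrophil genes tested, 0 passed with edgeR or DESeq2 (3 at an unadjusted p under 0.05), and all had a log2 fold change above 0 (median 1.03), and their sum was 3617 and 3136 CPM on L1 and L2 and 2875 and 1502 CPM on C1 and C2. Their part in the results was not tested.

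The keratin krt8 was higher on L1 and L2 than on C1 and C2 by 1.00 ± 0.21 on the log2 scale and did not pass (edgeR adjusted p = 0.0541), nor did krt18 (0.87 ± 0.23, edgeR adjusted p = 0.101), aqp1a.1 (0.93 ± 0.21, edgeR adjusted p = 0.0642), or hapln1b (0.86 ± 0.31, edgeR adjusted p = 0.207). DESeq2 called 2 of the 3 keratins tested and 3 of the 13 EHT markers. Of 32 endothelial core genes tested, cldn5b rose and plvapb fell. AC024175.4, a transcript that the study used to tell apart its HSPC clusters, had 86691 and 38423 CPM on L1 and L2 and 33619 and 21683 CPM on C1 and C2 and did not pass (1.31 ± 0.38, edgeR adjusted p = 0.128). AC024175.17 rose (1506 and 809 CPM, against 414 and 257 CPM on C1 and C2, 1.91 ± 0.36, edgeR adjusted p = 0.0371).

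The late plates hold few cdh5-positive cells. Of the 44 genes that rose, 32 were higher on L3 and L5 pooled than on C3 and C4 pooled and 12 were lower, where over all genes tested 49.0% were higher. Of the 26 that fell, 9 were lower, 10 were higher and 7 were equal. A fit over the 8 plates with at least 5 such cells, with the sort period as a term, tested 2119 genes, of which 16 rose (0.755%) and 5 fell (0.236%) with edgeR. On L3, L5, C3 and C4 alone, 32 of the 70 genes called on the early plates could be tested, of which 20 had the same sign and 3 passed. atf3 and socs3a turned there (log2 fold changes of -0.58 and -0.99), with atf3 at 729 and 1017 CPM on L3 and L5 and 2703 and 422 CPM on C3 and C4. In the fit over 8 plates, which holds the early plates too and so is no independent check, 45 of the 70 were tested and 18 passed in the same direction. her2 (-3.54, edgeR adjusted p = 0.00484), sele (1.75, adjusted p = 0.00603), cxcl18b (4.66, adjusted p = 0.00342), fosl1a (2.74, adjusted p = 0.00307) and rpl3 (-2.24, adjusted p = 0.0006) were among them. her2 had 139 and 0 CPM on L3 and L5 and 0 and 146 CPM on C3 and C4, so that its call rests on the early plates. The late plates overlapped for cxcl18b too, with 0 and 173 CPM on L3 and L5 and 91.1 and 0 CPM on C3 and C4. AC024175.4 passed in the fit over 8 plates (2.10, adjusted p = 0.00793). hey2 (-1.85, adjusted p = 0.380), atf3 (adjusted p = 0.506) and socs3a (0.33, adjusted p = 0.828) did not pass, and cxcr4a, hey1, notch3 and her15.1 were too low to be tested. On the late plates hey2 ran the other way, with 173 and 96.0 CPM on L3 and L5 and 0 and 32.5 CPM on C3 and C4. egr1 did so too, with 139 and 96.0 CPM on L3 and L5 and 0 and 16.2 CPM on C3 and C4. Both rest on at most 5 counts per plate there.

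**Figure D4:**
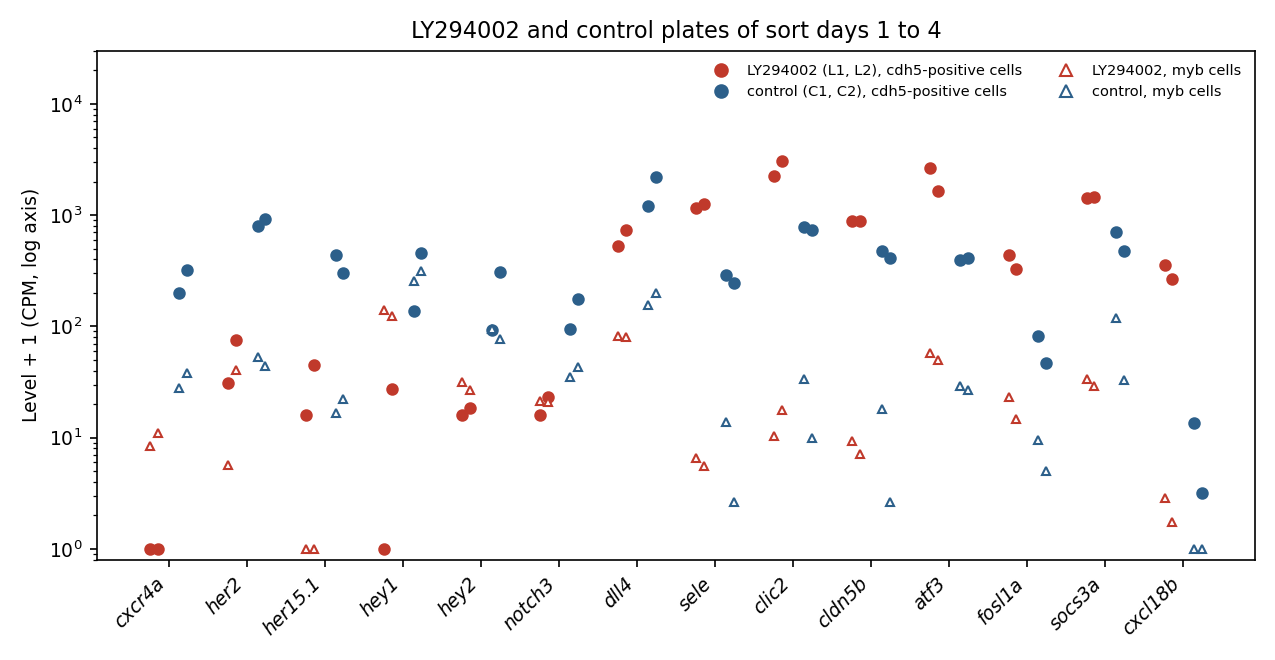
Levels of 14 genes on L1 and L2 (red) and C1 and C2 (blue), as CPM + 1 on a log axis, in cdh5-positive cells (dots) and myb cells (open triangles). Among the dots, the Notch targets and cxcr4a on the left lie lower on the treated plates, and sele to cxcl18b on the right lie higher. In cdh5-positive cells her2 is at 30.2 and 74.8 CPM, against 798 and 913 CPM on C1 and C2. Among the triangles, sele and clic2 overlap between treatments and atf3 lies higher on the treated plates.

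The effect of LY294002 in cdh5-positive cells was then set against that in myb cells of the same 4 plates, with an edgeR interaction test that keeps the plate as a block. Of 8611 genes, 53 had a higher log2 fold change in cdh5-positive cells (0.615%) and 17 a lower one (0.197%) at an adjusted p under 0.05. her2 fell more in cdh5-positive cells (difference -2.74 ± 0.46, adjusted p = 9.2e-06), and in myb cells it had 4.64 and 39.6 CPM on L1 and L2, against 52.5 and 43.1 CPM on C1 and C2. hey1 fell more as well (-2.97 ± 0.54, adjusted p = 7.9e-05), with 139 and 124 CPM in myb cells on L1 and L2 and 254 and 311 CPM on C1 and C2. In contrast, the difference was not called for dll4 (-0.09 ± 0.27, adjusted p = 0.983), notch3 (-1.73 ± 0.66, adjusted p = 0.303), hey2 (-1.73 ± 0.65, adjusted p = 0.276) or rpl3 (0.17 ± 0.23, adjusted p = 0.943). It was also not called for her15.1 (3.44 ± 1.34, adjusted p = 0.318), plvapb (1.85 ± 1.17, adjusted p = 0.742) or egr1 (0.74 ± 0.64, adjusted p = 0.873). In myb cells her15.1 had 0 CPM on L1 and L2, against 15.6 and 21.1 CPM on C1 and C2. egr1 had 5.56 and 6.10 CPM there on L1 and L2, against 36.9 and 38.2 CPM on C1 and C2. rpl3 had 524 and 369 CPM in myb cells on L1 and L2, against 2924 and 2673 CPM on C1 and C2, much as in cdh5-positive cells. AC024175.4 was likewise at -0.02 ± 0.14 (adjusted p = 0.996) and AC024175.17 at -0.20 ± 0.23 (adjusted p = 0.921). In myb cells AC024175.17 had 2332 and 780 CPM on L1 and L2, against 358 and 270 CPM on C1 and C2. Nor was the difference called for nfkbiab (0.54 ± 0.35, adjusted p = 0.755), tnfaip3 (1.06 ± 0.33, adjusted p = 0.102) or relb (1.61 ± 0.45, adjusted p = 0.0508). In myb cells nfkbiab had 293 and 290 CPM on L1 and L2, against 59.6 and 104 CPM on C1 and C2. tnfaip3 had 259 and 236 CPM there on L1 and L2, against 129 and 178 CPM on C1 and C2.

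On the higher side stood socs3a (2.60 ± 0.31, adjusted p = 6.7e-12), clic2 (2.45 ± 0.40, adjusted p = 6e-06), akap12b, a scaffold of protein kinase A (2.07 ± 0.33, adjusted p = 1.8e-06), sele (2.59 ± 0.67, adjusted p = 0.0224) and atf3 (1.61 ± 0.33, adjusted p = 0.00065). Of the 12 EHT markers other than cdh5, which chose the cells, 7 were called higher in this test and 0 lower, among them krt18 (1.30 ± 0.24, adjusted p = 7.9e-05) and krt8 (0.91 ± 0.21, adjusted p = 0.00609). For some of these a part of the difference lay in myb cells. serpinh1b, a collagen chaperone, had 0.927 and 0.762 CPM in myb cells on L1 and L2 and 29.8 and 11.4 CPM on C1 and C2. The control plates were also those with the larger share of cdh5-positive cells (26.3% and 21.1%), and the part of this in the levels of myb cells was not tested. Leaving out a plate moved the count to between 8 (without L1) and 48 genes (without L2), with 32 without C1 and 29 without C2, and DESeq2 called 19.

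The share of cdh5-positive cells with a UMI of a blood gene (runx1, myb, gata2b, gfi1aa, spi1b or ptprc) after thinning was 12.1% on L1 (4 of 33) and 9.38% on L2 (3 of 32), against 9.38% on C1 (6 of 64) and 16.2% on C2 (11 of 68). The means were 10.7 ± 1.94% with LY294002 and 12.8 ± 4.81% in controls (SD, n = 2 each), or -2.03 points with LY294002 relative to controls (exact permutation p = 1.00, the smallest possible being 0.333). Without thinning the difference was -6.31 points (exact permutation p = 0.333). Without C2 it was 1.37 points, so that a single plate sets its sign. Over all plates the thinned share was 11.7% in cdh5-positive cells, 62.2% in myb cells and 75.9% in lyz-high cells.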

How the data were processed

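SORT-seq plates of AGM cells at 36 hpf were analysed. The authors mapped reads to the Zv9 transcriptome (BWA per the submitters' processing notes), counted UMIs per gene and well and deposited estimated counts, not normalized. Their values were not whole, as after a correction for UMI collisions, which raises high counts slightly. Wells with at least 1500 UMIs were kept as cells, also on the later plates, whose labels state that not all cells were used. Of 26651 gene IDs, 19937 had a symbol. No doublet caller was used. Total UMIs per AGM plate ran from 1837137 (L5) to 8298214 (X2), and no cell was identical to another. The members and the gene lists were chosen with earlier results of these data known.

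Counts were summed per plate and class, rounded to whole numbers and tested with edgeR 4.0.16 and limma 3.58.1 in R 4.3.3 (filterByExpr, TMM factors, quasi-likelihood test, Benjamini-Hochberg adjustment). That test gives no SE, so the SE of a log2 fold change or difference was derived from its size and the F statistic. The planned term for sort period could not be fitted, since all 4 plates with at least 10 members of a single treatment were sorted on days 1 to 4. Shares were compared by exact permutation of plates. DESeq2 1.42.0, other limits, depth limits, filters, scalings and leaving out each plate were alternatives, and 4 were added after seeing the data. The edgeR tests were also run on simulated counts with a common dispersion for all genes. That setting cannot show how the tests behave with the spread between the real plates. Named genes were the lists' leading members, the 12 largest ratios and, per test, the 5 largest changes in each direction whose plates did not overlap, except 1 gene that is not reported here. her2, her15.1, crip2, rpl3, sele, akap12b, AC024175.17, egr1 and NF-kappaB genes beyond that, and the sets in the correlations, were chosen after their values were seen. Python 3.11.15 with numpy, pandas and scipy was used.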

Additional observations from a re-analysis of the deposited data

Results flagged for a closer look

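The LY294002 effect differed between cdh5-positive cells and myb cells for 70 genes by edgeR's interaction test, and some of the largest in each direction whose plates did not overlap are given here as log2 differences. Higher in cdh5-positive cells were serpinh1b (3.74), il11a, a cytokine gene (3.00), ENSDARG00000032768 (2.81) and socs3a (2.60). il11a itself was at 257 and 216 CPM in cdh5-positive cells of L1 and L2, against 27.8 and 76.1 CPM on C1 and C2. For serpinh1b the change within cdh5-positive cells was -0.53 ± 0.27 (edgeR adjusted p = 0.387), so that its difference rests on low counts in myb cells. Lower in cdh5-positive cells were her4.2 (-9.80), cxcr4a (-8.44), slc1a4, an amino acid transporter gene (-7.51), tox4a (-7.43) and tlr5b, a flagellin receptor gene (-5.25). The first 4 of these were without a UMI in cdh5-positive cells of L1 and L2, so their log2 values depend on the prior count and are no measure of size. tlr5b was without a UMI in myb cells of C1 and C2, and the change within cdh5-positive cells was 0.70 ± 0.45 (edgeR adjusted p = 0.496).

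The median level of cdh5 in cdh5-positive cells was 467 CPM on L4, against 1774 to 2080 CPM on the other LY294002 plates. L4 held a single cdh5-positive cell, so its value is that of 1 cell and of the gene that chose it. The cutoff for such a gap passes about 1 of 20 groups by chance where values are equally precise, which these are not. Several plate measures were scanned in each treatment group, so a flag somewhere among them is likelier than that.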

How the results depend on the processing

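Treatment calls within cdh5-positive cells (70 genes) numbered 127 with at least 3 UMIs of cdh5, 117 with at least 600 CPM, 115 with at least 3000 UMIs per cell, 247 with no filter on low counts, and 165 to 231 when a plate was left out, the lone plate being assumed to vary like the others. They numbered 21 over plates with at least 5 such cells, and 6 on days 10 to 12 alone, chosen after seeing the data. Of the 70, 58 to 69 held without a plate and 58 without the 5 cells of these plates that were low in endothelial genes, left out after seeing the data. On the late plates the log2 fold change was -2.47 for ENSDARG00000026039, -0.76 for cldn5b, -0.58 for atf3, -0.99 for socs3a, -0.51 for krt8 and -0.25 for krt18, against positive values on the early plates. The interaction calls (70 genes) numbered 40 without the 2% of cells with most UMIs, 38 without mitochondrially encoded genes, 19 with DESeq2, 43 with no filter, 4 over plates with at least 5 cells and 8 to 48 without a plate. The difference in share was 0.739 points on days 10 to 12 and -11.2 to -3.02 points without a plate. The difference in blood gene share was 10.00 points over plates with at least 5 such cells, chosen after seeing the data, and -5.43 to 1.37 points without a plate. The causes were not tested. Among single genes, 776 values kept direction and call under an alternative, 188 lost the call, 27 gained it and 6 reversed. Some of these alternatives used the same cells and plates as the main fit, so their agreement was fixed in advance. For the gene test they were no term for sort period, days 1 to 4 alone, and no cells of the top 2% by UMIs. At least 20 cells per plate was such a setting for both tests. No fit on days 10 to 12 with at least 10 cells per plate could be made. No paired analysis was possible because the labels give the groups no shared replicate numbers and no treatment for the single wells of X1 to X3. Depth limits the late plates, with 28820 to 61615 UMIs in all cdh5-positive cells of L3, L5, C3 or C4 and a single such cell on L4, and rare genes such as gata2b on every plate.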
